A study of Citrus sinensis with 24 samples.

Results

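Read counts of 2 central carbon genes of sweet orange, the malate dehydrogenase homolog Cs1g03610 and the glucose-6-phosphate isomerase homolog Cs3g24700, were examined in 24 RNA-seq libraries of fruits. Both are among the 24166 genes of the deposited count table. They were chosen by the study on these same libraries. From genes that changed between 2 fruit stages in at least 1 variety, 72 were selected on the Pearson correlation of their expression with the sugar/acid ratio of the fruits, and these 2 are the ones placed in primary carbon metabolism. The names are those of the closest Arabidopsis homologs given by the study.

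The fruits came from 4 field-grown varieties, the acidless Succari, Bingtang with low acid, and the pair Newhall and Xinhui, which the labels call acidic. Each was sampled at 142 days post anthesis (DPA), the cell expansion stage, and at 45 DPA, the cell division stage, with 3 replicate libraries per variety and stage. The varieties differ in their whole genetic background and not only in acidity, and each acidity class below the acidic one is a single variety, so acidity and variety cannot be told apart. The sugar and acid levels of the fruits were not analysed here, and acidity enters only as the class in the labels. Levels are given as CPM, the counts of a gene per 1000000 uniquely mapped reads of its library, and the libraries held 3.76 to 5.89 times that number of reads.

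Cytosolic malate dehydrogenase interconverts malate and oxaloacetate with NAD as the cofactor, and so links malate, one of the organic acids of fruits, to the carbon skeletons made in glycolysis. Glucose-6-phosphate isomerase interconverts glucose 6-phosphate and fructose 6-phosphate. That step connects the hexoses released from sucrose with glycolysis in one direction and with sucrose synthesis in the other. In citrus, acid is stored in the vacuoles of the juice cells, mostly as citrate, and sugars build up as the fruit expands.

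The malate dehydrogenase homolog Cs1g03610 was low everywhere except in Succari fruits at 142 DPA. There it had 6.99, 12.6 and 9.52 CPM in the 3 libraries, from 40, 69 and 51 reads. At that stage it had 2.39, 1.05 and 0.779 CPM in Bingtang, 1.38, 0.928 and 2.12 CPM in Newhall and 1.39, 1.62 and 0.347 CPM in Xinhui. The lowest Succari library thus had 2.93 times the level of the highest of the 21 others. These 3 libraries held 55.2% of the 290 reads of this gene in the whole series.

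At 45 DPA Cs1g03610 had 1.35, 1.83 and 1.40 CPM in Succari and 0.990, 0.851 and 0.197 CPM in Bingtang. Newhall had 1.60, 0.939 and 0.798 CPM at that stage, and Xinhui 1.53, 0.849 and 0.782 CPM. All 12 young libraries rest on 1 to 9 reads each, so single values are coarse. Summed over its 3 libraries, Succari at 45 DPA had 24 reads, or 1.52 CPM with an exact Poisson 95% interval of 0.974 to 2.26 CPM. Bingtang had 11 reads, or 0.688 CPM with an interval of 0.343 to 1.23 CPM. These intervals cover counting error only, and they overlap.

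In the order of group means Cs1g03610 fell into 1 high group and 7 lower ones with no clear step between neighbours. Succari at 142 DPA averaged 9.71 ± 2.83 CPM (SD, n = 3). It was followed by Succari at 45 DPA (1.53 ± 0.258), Newhall and Bingtang at 142 DPA (1.48 ± 0.603 and 1.41 ± 0.861) and Xinhui at 142 DPA (1.12 ± 0.681). The lowest means were those of Newhall, Xinhui and Bingtang at 45 DPA (1.11 ± 0.428, 1.05 ± 0.416 and 0.680 ± 0.424 CPM). Each of the 7 lower groups overlapped its neighbour in this order, and only the step below Succari at 142 DPA was free of overlap. Groups further apart in the order could separate, though on few reads. At 45 DPA all 3 Succari libraries (at least 1.35 CPM) lay above all 3 of Bingtang (at most 0.990 CPM).

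**Figure D1:**
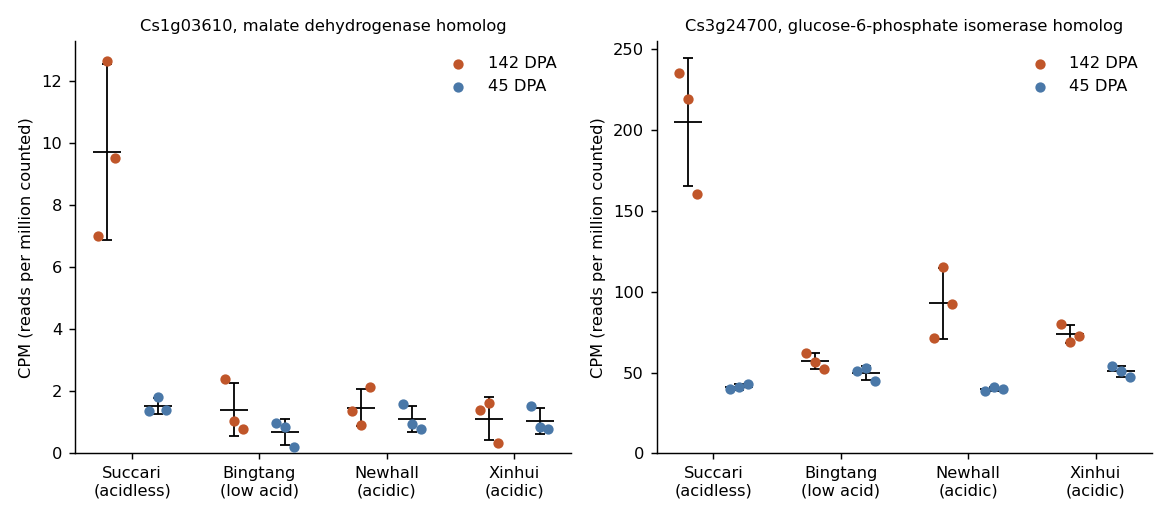
CPM of Cs1g03610 (left) and Cs3g24700 (right) by variety, with points for the 3 libraries at 142 DPA (orange) and at 45 DPA (blue), a horizontal bar for the mean and whiskers for 1 SD. In both genes the 3 Succari libraries at 142 DPA lie above all 21 others, from 6.99 CPM up for Cs1g03610 and from 160 CPM up for Cs3g24700.

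The stage change of Cs1g03610 had its highest estimate in Succari, and wide intervals in the other varieties. The log2 fold change of 142 over 45 DPA was 2.65 in Succari (95% interval 1.81 to 3.49), or 6.27-fold. It was 0.93 in Bingtang (-0.27 to 2.13), 0.18 in Newhall (-0.91 to 1.27) and 0.12 in Xinhui (-1.01 to 1.24). The intervals of the last 3 varieties include both no change and a rise of over 2-fold. The Bingtang estimate rests heavily on replicate 1 at 142 DPA with 11 reads, and was 0.35 without it, while the Newhall estimate was -0.18 without replicate 3 at 142 DPA. The Xinhui estimate ranged from -0.29 to 0.51 with single libraries left out, so its sign was not settled either. Because the study kept genes that changed between stages, these values are descriptions and carry no test. Among all 20739 genes analysed, the share that differed between stages was 35.5% for Succari, 37.8% for Bingtang, 35.7% for Newhall and 35.2% for Xinhui (edgeR's quasi-likelihood test, adjusted p under 0.05 and at least 2-fold).

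Across acidity classes at 142 DPA, Cs1g03610 stood apart in the acidless variety, and no step between the low acid and the acidic varieties was detectable at this depth. The log2 fold change of Succari over the mean of the other 3 varieties was 2.87 (2.26 to 3.48), or 7.31-fold, and those 9 libraries together held 61 reads. That of Bingtang, low in acid, over the mean of Newhall and Xinhui was 0.13 (-0.81 to 1.07). This interval spans from 0.572-fold to 2.09-fold. Both contrasts follow the ratio that selected the gene and are not tested. Of all genes, 11.9% differed between Succari and the other varieties at this stage and 7.41% between Bingtang and the acidic pair.

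The isomerase homolog Cs3g24700 was better covered, with 149 to 1348 reads per library, and was also highest in Succari at 142 DPA. It had 235, 219 and 160 CPM in the 3 Succari libraries at 142 DPA. At that stage it had 62.3, 56.3 and 52.4 CPM in Bingtang, 71.4, 115 and 92.2 CPM in Newhall and 79.9, 69.0 and 72.5 CPM in Xinhui. The lowest Succari library had 1.39 times the level of the highest other library, Newhall replicate 2. The Succari libraries held 34.9% of the 9751 reads of this gene.

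At 45 DPA the range of Cs3g24700 was narrow, from 38.7 to 54.0 CPM over the 12 libraries. It had 39.7, 41.0 and 43.0 CPM in Succari and 50.7, 53.1 and 44.9 CPM in Bingtang. Newhall had 38.7, 41.1 and 39.7 CPM and Xinhui 54.0, 51.3 and 47.3 CPM. The young fruits thus formed a lower pair, Succari and Newhall, and a higher pair, Xinhui and Bingtang, whose libraries did not overlap. Succari, the highest variety at 142 DPA, was in the lower pair at 45 DPA.

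The 8 group means of Cs3g24700 formed more steps than those of Cs1g03610. Succari at 142 DPA averaged 205 ± 39.6 CPM (SD, n = 3), Newhall 92.9 ± 21.8, Xinhui 73.8 ± 5.59 and Bingtang 57.0 ± 4.98 CPM. At 45 DPA the means were 50.9 ± 3.39 in Xinhui, 49.6 ± 4.21 in Bingtang, 41.2 ± 1.70 in Succari and 39.8 ± 1.19 CPM in Newhall. Neighbours in this order were free of overlap at 3 steps, below Succari at 142 DPA, between Xinhui and Bingtang at 142 DPA, and between Bingtang and Succari at 45 DPA. Newhall and Xinhui at 142 DPA overlapped, as did Bingtang at 142 DPA and Xinhui at 45 DPA.

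The estimated stage change of Cs3g24700 varied from variety to variety. Stage changes entered the choice of this gene too, so the values carry no test. Of all genes, 35.2% (Xinhui) to 37.8% (Bingtang) were called between stages. The log2 fold change of 142 over 45 DPA was 2.32 in Succari (95% interval 1.99 to 2.65), or 4.99-fold. In Newhall it was 1.05 (0.72 to 1.37), or 2.06-fold, and in Xinhui 0.58 (0.26 to 0.90), or 1.50-fold. In Bingtang it was 0.14 (-0.18 to 0.47), an interval that reaches up to 1.38-fold. Bingtang thus had the smallest estimate for the isomerase gene, with an interval that overlapped that of Xinhui. The intervals of Xinhui and Newhall overlapped as well. For the dehydrogenase gene the order of Bingtang, Newhall and Xinhui was not settled, since their wide intervals overlapped.

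For Cs3g24700 at 142 DPA the low acid variety lay on the other side of the acidic ones from the acidless variety. The log2 fold change of Succari over the mean of the other varieties was 1.50 (1.27 to 1.74), or 2.83-fold. That of Bingtang over the mean of Newhall and Xinhui was -0.53 (-0.81 to -0.25), or 0.694-fold. All 3 Bingtang libraries, at most 62.3 CPM, were below all 6 libraries of the acidic varieties, at least 69.0 CPM. These libraries entered the selection of the gene, so the values are a description with no test.

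**Figure D2:**
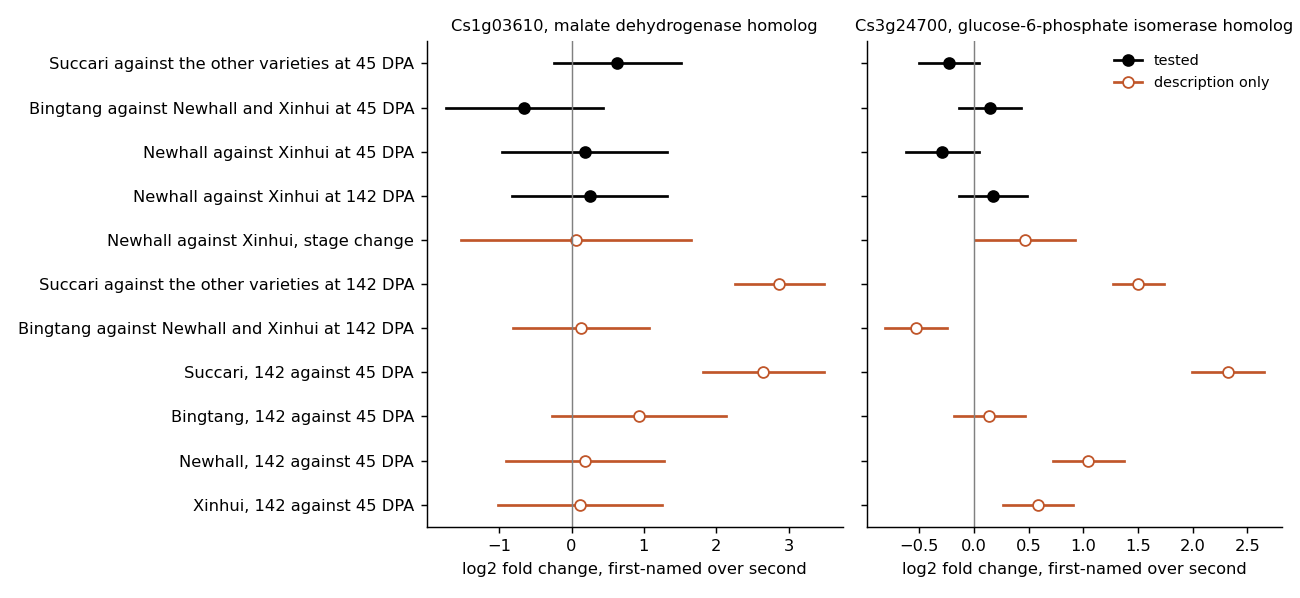
Log2 fold changes of the 2 genes with 95% intervals from the edgeR fit of all 24 libraries, the first-named group over the second (142 over 45 DPA for stage changes). Filled black points mark contrasts that were tested and open orange points those that the choice of the genes already used. The intervals of Cs1g03610 are wider throughout, and the Succari contrasts at 142 DPA lie at 2.87 and 1.50.

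Tests were made only within 1 stage and where the ratio gave no large difference between groups, that is between varieties at 45 DPA and between Newhall and Xinhui at either stage. The libraries did enter the selection, so these tests are not fully independent of it. A strong correlation with the ratio favours genes that differ little between groups of like ratio. A lack of calls was thus favoured in advance, and nothing is read from it. In none of 4 such contrasts was either gene called by edgeR, and DESeq2 and limma called neither as well. By edgeR 0 of the 8 unadjusted p-values were under 0.05, a level that 3417 to 6954 of the 20739 genes passed in these contrasts. Among all genes, 3.22% were called for Succari against the other varieties at 45 DPA and 1.16% for Bingtang against the acidic pair. For Newhall against Xinhui the shares were 2.96% at 45 DPA and 6.79% at 142 DPA.

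In young fruits Cs1g03610 in Succari was not separable from the other varieties, with a log2 fold change of 0.63 (SE 0.42, edgeR adjusted p = 0.402). The 95% interval of -0.25 to 1.51 does not exclude a level up to 2.85-fold higher. In Bingtang against the acidic pair it was -0.65 (SE 0.52, adjusted p = 0.592). Newhall against Xinhui gave 0.18 (SE 0.55, adjusted p = 0.926) at 45 DPA and 0.25 (SE 0.52, adjusted p = 0.796) at 142 DPA. The sign of the Newhall contrasts turned when single libraries were left out.

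For Cs3g24700 the same contrasts were far tighter. Succari stood at a log2 fold change of -0.23 from the other varieties at 45 DPA (SE 0.13, edgeR adjusted p = 0.318), and Bingtang at 0.15 from the acidic pair (SE 0.14, adjusted p = 0.663). Newhall against Xinhui gave -0.29 at 45 DPA (SE 0.16, adjusted p = 0.353), with all 3 Newhall libraries below all 3 of Xinhui, and 0.17 at 142 DPA (SE 0.15, adjusted p = 0.463). The fit shares 1 estimate of spread over 8 groups. With only the compared groups fitted, adjusted p was 0.0172 for Succari and 0.0214 for Newhall against Xinhui at 45 DPA, at fold changes that stayed under the 2-fold limit.

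The stage changes of Newhall and Xinhui were also set against each other, a contrast added after the data were seen and given without a test, since the study chose genes on stage changes. For Cs3g24700 the Newhall estimate minus the Xinhui estimate was 0.46 on the log2 scale (SE 0.22, 95% interval 0.01 to 0.92). It was 0.69 when scaled to library totals alone, 1.13 relative to actin, and 0.27 without Newhall replicate 2 at 142 DPA, the library with 115 CPM. For Cs1g03610 the difference was 0.07 (SE 0.77), and 0.77 relative to actin. Of all genes, 5.61% were called in this contrast.

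The Succari libraries at 142 DPA also differed among themselves in genes of seed maturation. A set of 5 seed genes from the study's list, coding for homologs of an oleosin, Em6, a vicilin-like cupin, Beta-TIP and LEA4-5, summed to 3871 and 3939 CPM in Succari replicates 1 and 2 but to 36.0 CPM in replicate 3. The other 9 libraries at 142 DPA had sums of 4.12 to 32.3 CPM, and all 12 at 45 DPA were at 0.341 to 3.02 CPM. All 5 markers were detected in each Succari library at 142 DPA. The same held for Bingtang replicate 3 at both stages, and for Newhall replicate 1 and Xinhui replicates 2 and 3 at 142 DPA. Replicate 3 therefore had little more signal of these 5 genes than the highest Xinhui library. All 5 were selected on a positive correlation with the sugar/acid ratio, so high levels in Succari at 142 DPA were favoured in advance. The study's list also names Cs5g31010 and Cs5g24670 as lipid transfer or seed storage proteins, and neither is in this set. Cs5g31010 had 2.62, 2.20 and 1.12 CPM in Succari replicates 1, 2 and 3 at 142 DPA. Cs5g24670 went the other way, with a negative correlation with the ratio in the study.

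Cs1g03610 had 9.52 CPM in replicate 3 (51 reads), between replicates 1 and 2 with 6.99 and 12.6 CPM (40 and 69 reads). With replicate 3 as the only Succari library at 142 DPA its log2 fold change against all other varieties was 2.78, close to the 2.87 with all 3. Cs3g24700 was lower in replicate 3, with 160 CPM against 235 and 219 CPM in the seed-rich replicates. With replicate 3 alone its log2 fold change was 1.07 at 142 DPA, against 1.50 with all 3, and its stage change 1.88, against 2.32. Across the 3 Succari libraries the highest Cs3g24700 level was 1.47 times the lowest. In Newhall at 142 DPA it was 1.61 times, at seed sums of 4.82 to 5.57 CPM. The split sets 1 library against 2, and the part of the seed genes in this difference was not tested. In whole-fruit RNA a change in the share of a tissue and a change in RNA per cell cannot be told apart. The sources used here name no marker gene of juice sacs or peel.

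**Figure D3:**
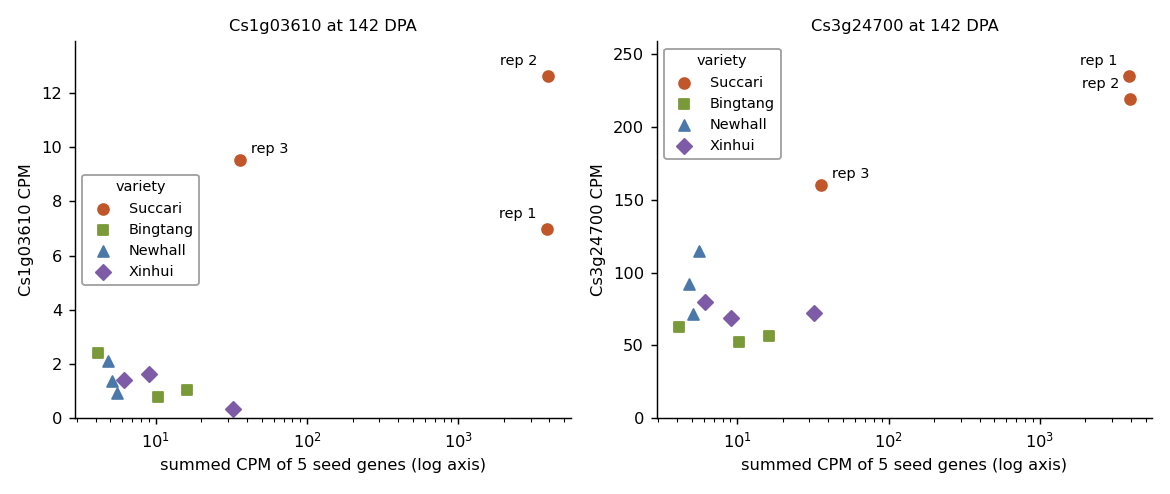
CPM of Cs1g03610 (left) and Cs3g24700 (right) in the 12 libraries at 142 DPA against the summed CPM of 5 seed genes on a log axis, with symbols for the varieties. Succari replicate 3, with a seed sum of 36.0 CPM, has 9.52 CPM of Cs1g03610, between the seed-rich replicates, and 160 CPM of Cs3g24700, below both of them.

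Actin (Cs1g05000), the reference gene of the study's qPCR, offers a second scale. It averaged 1883 ± 287 CPM in Succari at 142 DPA (SD, n = 3), with 1691 and 1746 CPM in the seed-rich replicates and 2213 CPM in replicate 3, and 2132 to 2543 CPM in the means of the other 7 groups. Per 1000 actin reads, Cs3g24700 had 139, 126 and 72.5 reads in the Succari libraries at 142 DPA and group means of 25.5 in Bingtang, 42.8 in Newhall and 29.8 in Xinhui. Cs1g03610 had 5.22 ± 1.75 reads per 1000 actin reads in Succari and 0.442 to 0.670 in the means of the other varieties at that stage. The place of Succari above the other varieties held on this scale for both genes.

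The relative spread between replicates was larger for Cs1g03610. For Cs1g03610 the variance within groups was 1.76 times that expected from counting alone, over 16 degrees of freedom. For Cs3g24700 it was 9.54 times the counting variance, a ratio that grows with the number of reads and so does not rank the genes. The biological coefficient of variation estimated by edgeR was 0.240 for Cs1g03610 and 0.132 for Cs3g24700, beside a common value of 0.146.

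The 2 genes shared their high point, and no further likeness was detectable at the depth of Cs1g03610. Over the 24 libraries their log2(CPM + 0.5) had a Pearson r of 0.77 and a Spearman rho of 0.41. Over the 21 libraries left when Succari at 142 DPA is set aside, r was 0.13, and over the deviations of the 24 libraries from their group means it was 0.12. These are descriptions over libraries that share varieties and stages. Cs1g03610 had 61 reads in the 9 other libraries at 142 DPA and 69 in the 12 at 45 DPA. Counting error pulls r towards 0, so the low values cannot show that the genes are unrelated. With TMM scaling, on which all genes were ranked, r over the 24 libraries was 0.75. Cs3g24700 came 81st of 20738 genes by its r with Cs1g03610.

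Few genes reached a high r with Cs1g03610, and for those named r was low without Succari at 142 DPA. Cs1g03610 had 290 reads in all, against 9751 for Cs3g24700, and counting error limits the r that Cs1g03610 can reach. Only 18 genes reached r of 0.80 over the 24 libraries, and none reached 0.90. The closest was the receptor-like kinase homolog Cs1g14800 (r = 0.89), at 7.09 CPM in Succari at 142 DPA and at most 0.210 CPM in every other group mean, followed by orange1.1t02250 (r = 0.88), without a name in the sources. Of the study's list, Cs2g20110 (r = 0.86) and the LBD1 homolog Cs7g27620 (r = 0.86) came next. Without the high Succari group, r with these 4 genes was between 0.20 and 0.38. There each of the 4 had group means of at most 0.257 CPM and Cs1g03610 had few reads, so little can be read from these values. The lowest r were those of Cs9g07710 (-0.83) and Cs1g08490 (-0.81). Cs9g07710 had 27.0 CPM in Succari at 142 DPA and 43.1 to 54.7 CPM in the other group means.

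More genes reached a high r with the better covered Cs3g24700, and for those named r stayed high without Succari at 142 DPA. At an r of 0.80 or more there were 520 genes and at 0.90 or more 26, while 411 genes were at -0.80 or less. The closest was the lipid transfer protein homolog Cs5g31010 (r = 0.95), followed by Cs6g17540 (r = 0.93), without a name in the sources. Next in the study's list were the homologs of the small heat shock protein HSP18.2 (Cs7g32260, r = 0.93) and of the metal-binding protein HIPP27 (Cs1g25820, r = 0.93). Without Succari at 142 DPA, r with these 4 genes was 0.71 to 0.84. The libraries kept were of both stages, so this r also reflects stage differences. Cs5g31010 was near the floor there, with group means of 0 to 0.059 CPM at 45 DPA and 0.215 to 0.435 CPM at 142 DPA. Of the 5 seed genes, LEA4-5 (orange1.1t02243) had an r of 0.91 with Cs3g24700 and the cupin (Cs1g23800) 0.89. Em6 (Cs7g30920) had 0.85, the oleosin (Cs2g27550) 0.83 and Beta-TIP (Cs5g17210) 0.81. Cs5g24670, also named as lipid transfer or seed storage, had -0.86. An r of 0.80 was common in the study's list, where the 71 other genes had a median r of 0.79 and 33 reached 0.80. The 0.91 of LEA4-5 was among the higher values of that list. All were selected on the same ratio over these libraries, so a high r among them follows from the choice. The strongest opposite pattern was that of Cs7g10690 (r = -0.95, and -0.92 without Succari at 142 DPA), which averaged 34.9 CPM in Succari at 142 DPA and 45.2 to 64.2 CPM in the other groups. Next came Cs9g01720 (r = -0.94, and -0.86 without Succari at 142 DPA).

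**Figure D4:**
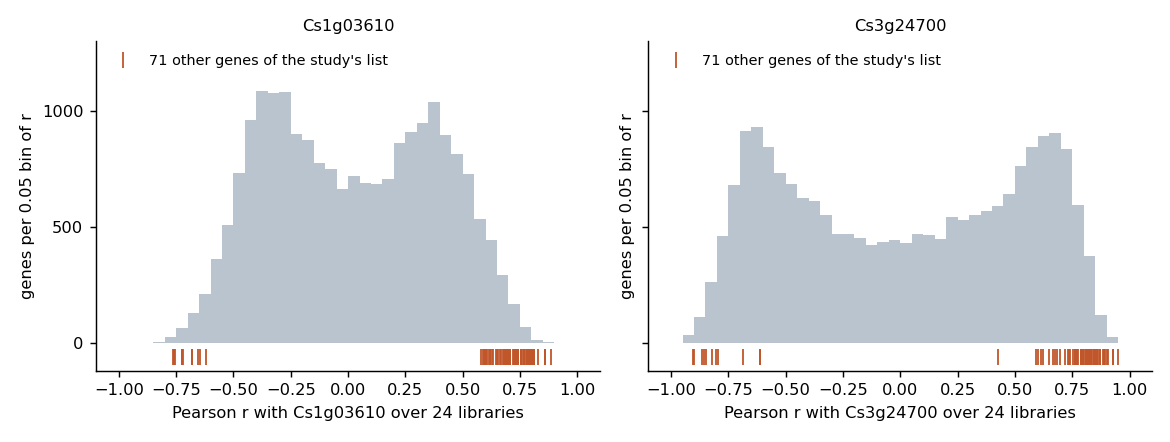
Number of genes per 0.05 step of Pearson r with Cs1g03610 (left) and with Cs3g24700 (right), from log2(CPM + 0.5) over 24 libraries and 20738 genes, with orange ticks for the 71 other genes that the study selected on the sugar/acid ratio. For Cs1g03610, with 290 reads in all, no gene reached 0.90, whereas 26 genes did for Cs3g24700, with 9751 reads.

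Within groups the named genes varied with Cs3g24700 to different degrees. For Cs5g31010, HSP18.2, HIPP27 and Cs6g17540 r with the deviations of Cs3g24700 from its group means was 0.72, 0.68, 0.71 and 0.53 over the 24 libraries. For Cs7g10690 it was -0.75 and for Cs9g01720 -0.52. These genes were picked by an r that includes the deviations, and 1 of the 20 genes closest to Cs3g24700 was among the 20 closest by deviations alone. HSP18.2 had 239.6, 94.7 and 12.1 CPM and HIPP27 33.7, 20.5 and 6.72 CPM in Succari replicates 1, 2 and 3 at 142 DPA, in the same order as Cs3g24700 and highest in the seed-rich replicates. The genes closest to Cs1g03610 had r between -0.03 and 0.33 with its deviations, which rest on few reads in most libraries.

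No other genes of glycolysis or of malate metabolism could be set beside this pair, since none of the 24166 gene IDs is paired with a function in the tables used here beyond the study's own list. Of the 18 other metabolism genes of that list, chosen on the same libraries, edgeR called 2 for Succari at 45 DPA (1 higher, 1 lower), beside 3.22% of all genes, and DESeq2 and limma called 1 each. All 3 tools called 1 for Bingtang at 45 DPA (lower by edgeR), beside 1.16% of all genes, and 2 for Newhall over Xinhui at 142 DPA (higher by edgeR), beside 6.79%. For Newhall against Xinhui at 45 DPA there were 0 calls by edgeR, DESeq2 and limma, with 2 of 18 at an unadjusted p under 0.05. The median log2 fold changes of the 18 genes in these 4 contrasts were between -0.03 and 0.08, and those of all genes between -0.0049 and 0.01. At 142 DPA 14 of the 18 were higher and 2 lower in Succari than in the other varieties, beside 11.9% of all genes called, but this is a difference for which the genes were chosen and nothing is read from it.

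Among genes numbered next to the pair, 1 was called higher in Succari at 142 DPA. For the 10 tested IDs on either side of Cs3g24700 the difference at 142 DPA between Succari and the other varieties, as a log2 fold change, had a median of -0.01 and ran from -0.62 to 0.90, so that none was 2-fold different. For the 20 neighbours of Cs1g03610 the median was 0.02 and the range -1.48 to 1.30, with 1 gene called higher and 3 lower (edgeR), or 4 of 20 beside 11.9% of all genes. The median over all genes was 0.06.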

How the data were processed

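The authors mapped the reads and deposited 1 table of raw counts of uniquely mapped reads for 24166 genes and 24 libraries. Its name speaks of RPKM, but the values are whole-number counts whose sums equal the library totals in the file headers, and a dash stands for no read. Which aligner and genome build were used is not given in the sources used here. No gene coordinates or sequences were used. All 24 columns were matched to a sample by title.

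The 2 genes, the seed genes and the other lists were chosen with earlier results of these data known, and the study selected the genes on these libraries. Group contrasts came from edgeR 4.0.16 (R 4.3.3), the quasi-likelihood test with TMM scaling in one fit of 8 groups over the 20739 genes with at least 0.3 CPM in 3 libraries, with Benjamini-Hochberg adjustment. Where several varieties form one side, each has equal weight. Genes were called at an adjusted p below 0.05 if they also differed at least 2-fold. Printed CPM use library totals. Genes most like each member were ranked by Pearson r of log2(TMM CPM + 0.5). Named were the 2 highest, the 2 lowest and the 3 highest of the study's list.

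Replicate numbers are given in the labels without saying whether they are separate trees, so p-values cover the spread between these libraries. The numbers were not found to pair libraries across groups. The scripts were tested on simulated counts. Alternatives were 3 scalings, 2 filters, DESeq2 1.42.0, limma 3.58.1, a replicate block, fits of the compared groups only, each library left out, and an actin scale. Python 3.11.15 with numpy 2.4.6, pandas 2.3.3, scipy 1.17.1 and matplotlib 3.10.9 was used.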

Additional observations from a re-analysis of the deposited data

How the results depend on the processing

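Neither gene gained or lost a call in any tested contrast under any alternative. Over 84 pairs of libraries with the same replicate number, deviations from the group means correlated at -0.16 to 0.15 (median -0.0036), and 8 of 24 libraries were closest to their own number. With the replicate number as a block (replicate block), genes called for Succari at 142 DPA numbered 2435 instead of 2477, and no count moved by over 1.5 times.

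The sign of small differences was unsettled. With single libraries left out, Newhall against Xinhui ranged for Cs1g03610 from -0.19 to 0.54 at 45 DPA, from -0.16 to 0.64 at 142 DPA and from -0.34 to 0.46 for the stage change, and for Cs3g24700 from -0.016 to 0.34 at 142 DPA. Bingtang against the acidic pair at 142 DPA ranged from -0.45 to 0.44 and the Bingtang stage change from 0.35 to 1.25 for Cs1g03610, both lowest without Bingtang replicate 1. The Newhall stage change of Cs3g24700 ranged from 0.86 to 1.21, lowest without replicate 2 at 142 DPA.

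Relative to actin, Cs3g24700 gave 1.82 for Succari against the other varieties at 142 DPA, and stage changes of 2.72 in Succari, 1.45 in Newhall and 0.32 in Xinhui. On that scale the stage change of Newhall minus that of Xinhui was 1.13 for Cs3g24700 and 0.77 for Cs1g03610. For Cs3g24700 it was 0.69 with library totals, and 0.27 to 0.63 with single libraries left out, lowest without Newhall replicate 2 at 142 DPA. With Succari replicate 3 alone at 142 DPA, a choice made after seeing the data, it gave 1.07 and a stage change of 1.88, and 701 genes were called for Succari at 142 DPA. With only the compared groups fitted, 429 genes were called for Bingtang and 981 for Newhall against Xinhui at 45 DPA, instead of 240 and 614. Calls for Succari at 45 DPA ranged from 441, without Succari replicate 2, to 742 with single libraries left out. They numbered 865 with only the compared groups fitted. The causes were not tested. The 20 genes most like Cs1g03610 shared 2 with the 20 by Spearman's rho, 0 without Succari at 142 DPA and 12 at a pseudocount of 0.1, and those of Cs3g24700 shared 0, 1 and 17. By deviations from group means they shared 0 and 1.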
